A study of Mus musculus with 7 samples.

Results

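Protogenin and its relatives were followed in sorted pancreatic alpha cells of control mice and of mice with a conditional knockout of Nkx2-2, a homeodomain transcription factor. The 5 genes were taken by symbol from the deposited count table, which lists 55536 genes: Prtg (protogenin), Igdcc3, Igdcc4, Neo1 (neogenin) and Dcc (deleted in colorectal carcinoma). Prtg was chosen because it was among the largest increases in the KO libraries of this same comparison, and the other 4 because they are its relatives, so the KO and control values of the family are given as a description without a test. The design text writes the reporter locus as Rosa25 and the sample labels as Rosa26. The cells came from islets of C57B1/6J mice (spelled as in the design text) and were sorted by red tdTomato fluorescence. The 4 control libraries had the genotype Nkx2.2+/+;Gcg-iCre;Rosa26:tdTomato and the 3 knockout (KO) libraries Nkx2.2fl/fl;Gcg-iCre;Rosa26:tdTomato. Both groups therefore carried the glucagon-driven Cre and the reporter, and they differed in whether both Nkx2-2 alleles were flanked by loxP sites. Age, pooling of animals and whether the libraries came from separate mice are not given in the labels, so p-values measure only the spread between these libraries, which may be technical. Control libraries are numbered 1 to 4. The KO libraries are KO 1, KO 2 and an unnumbered one, whose column number matched no KO title. Values per library always run through controls 1 to 4, followed by KO 1, KO 2 and the unnumbered library.

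The DCC family comprises single-pass membrane receptors whose outer part is built from immunoglobulin domains followed by fibronectin type III domains. DCC and neogenin bind netrins, and neogenin also binds the repulsive guidance molecules (RGMs), through which it touches bone morphogenetic protein (BMP) signalling. DCC is best known for steering axons, neogenin is broadly expressed, and protogenin, Igdcc3 and Igdcc4 are known mainly from the embryo, where protogenin marks early neural tissue and mesoderm.

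The total was between 45483504 and 72456557 counts per library. Counts divided by the DESeq2 size factors are called normalized counts, a positive log2 fold change means a higher level in KO, SE is its standard error in DESeq2, and an adjusted p-value comes from DESeq2 (Benjamini-Hochberg over all genes) where edgeR is not named. On simulated counts DESeq2 made more false calls than its threshold allows (36.5% of its calls) and edgeR came near its own (6.57%). The counts were drawn with edgeR's dispersions, a setting that may favour edgeR, so the simulation does not rank the tools. For this reason edgeR is given beside the DESeq2 calls and does not replace them. Nkx2-2 itself had 8596 to 12297 normalized counts in control and 7534 to 7758 in KO libraries (adjusted p 0.0218, edgeR 0.152). Its transcripts thus remained plentiful in KO libraries, and the difference passed in 2 of 7 fits that each left out 1 library. It is counted over the whole gene, and the deleted part is not given in the sources used here. Alpha cell markers were present in every library, and 6 of 8 were lower in KO by DESeq2 (2.27% of all genes) and 2 by edgeR. Gcg was at 7042726 ± 855536 (SD, n = 4) and 3423114 ± 635109 (SD, n = 3), with an adjusted p of 6.76e-10 by DESeq2 and 0.175 by edgeR. Control 4 and the unnumbered KO library were the deepest. Control 4 had a count in 31024 genes, against 25873 in the unnumbered KO library and 23150 to 24532 in the others. Whether this bears on genes with few counts was not tested. Control 4 stood apart on genes whose exon length lies to 90% or more beneath exons on the other strand: over 73 such genes its median difference from the median of the other libraries was -5.37 on the log2(normalized count + 1) scale, against 0.03 over genes with no such exons. None of the 5 family genes has exons under an opposite-strand gene in GENCODE M21 (0.0% of exon length each). In sorted bulk RNA a smaller number of cells expressing a gene and less RNA per cell cannot be told apart.

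Where the 5 genes start was compared first. Prtg (ENSMUSG00000036030, chromosome 9, 72806874 to 72917291, plus strand), Neo1 (ENSMUSG00000032340, chromosome 9, 58874687 to 59036441, minus strand), Igdcc4 (ENSMUSG00000032816, chromosome 9, 65101486 to 65137940, plus strand) and Igdcc3 (ENSMUSG00000032394, chromosome 9, 65141189 to 65185872, plus strand) lie on 1 chromosome in GRCm38. Igdcc4 and Igdcc3 are direct neighbours in the same orientation. RefSeq start-site windows on GRCm38.p6 were matched for 4 of the 5. The 250 bases before each start are shown for 3 of them, to set a highly expressed, a moderately expressed and a barely detected gene side by side. They are 5′ to 3′ on the gene's strand, with CG dinucleotides in capitals.
Neo1, chr9:59036442-59036691, minus strand: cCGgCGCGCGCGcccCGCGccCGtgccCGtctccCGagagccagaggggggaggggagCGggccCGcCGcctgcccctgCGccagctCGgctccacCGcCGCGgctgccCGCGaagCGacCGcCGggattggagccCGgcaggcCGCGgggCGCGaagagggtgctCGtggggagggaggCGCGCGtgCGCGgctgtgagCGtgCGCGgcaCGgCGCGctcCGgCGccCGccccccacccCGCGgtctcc
Igdcc4, chr9:65101236-65101485, plus strand: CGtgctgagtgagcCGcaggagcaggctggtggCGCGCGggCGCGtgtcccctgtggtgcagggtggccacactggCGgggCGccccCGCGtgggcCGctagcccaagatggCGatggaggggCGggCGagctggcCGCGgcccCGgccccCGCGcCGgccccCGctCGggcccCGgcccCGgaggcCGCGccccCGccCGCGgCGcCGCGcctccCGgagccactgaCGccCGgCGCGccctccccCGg
Igdcc3, chr9:65140904-65141153, plus strand: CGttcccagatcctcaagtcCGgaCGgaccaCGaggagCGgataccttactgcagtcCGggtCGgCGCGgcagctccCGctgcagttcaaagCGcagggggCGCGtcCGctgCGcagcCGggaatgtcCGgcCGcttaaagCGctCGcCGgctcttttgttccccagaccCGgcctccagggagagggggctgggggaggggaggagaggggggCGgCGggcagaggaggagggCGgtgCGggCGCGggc
These windows held 45, 39 and 28 CG dinucleotides, against a median of 6 over all 32851 windows of this length. The matching window of Prtg held 24 and lies inside the first exon of the GENCODE model, which starts 400 bases upstream of the RefSeq start. The GC content was 83.2% for Neo1, 84.0% for Igdcc4, 72.0% for Igdcc3 and 75.2% for Prtg. The 5-letter core AAGTG of the NKX2 class, searched on both strands as AAGTG or CACTT, was found in none of the 4 windows and in 40.7% of all windows. All 4 starts were thus rich in CG dinucleotides, whether the gene was strongly expressed or barely detected.

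Neo1 was the main family member in alpha cells, Igdcc4 came second, and Prtg was low in controls and plainly detected in the KO libraries. On the scale of normalized counts per kilobase (kb) of exon, which allows genes to be compared, the control means were 1185 for Neo1, 77.0 for Igdcc4, 3.08 for Prtg, 0.732 for Dcc and 0.565 for Igdcc3. The KO means were 1306, 125, 35.6, 0.484 and 0.793 in the same order of genes. Neo1 stood above Igdcc4, and Igdcc4 above the other members, in each of the 7 libraries. In controls the levels of Prtg, Dcc and Igdcc3 overlapped, whereas in each KO library Prtg lay above Dcc and Igdcc3. Neo1 was at the 94.1 percentile of protein-coding genes with a count in control libraries, Igdcc4 at 45.8 and Prtg at 21.8, and Prtg was at 38.1 in KO libraries.

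Prtg had 6, 66, 4 and 32 counts in controls and 363, 365 and 334 counts in KO libraries. Normalized, these were 6.81, 77.8, 5.23 and 23.1 in controls and 355, 377 and 247 in KO libraries. The groups did not overlap: the lowest KO library was 3.18 times the highest control. The means were 28.3 ± 34.0 (SD, n = 4) and 326 ± 69.3 (SD, n = 3), a ratio of 11.6 and a log2 change of 3.53 (SE 0.69). The 3 KO libraries were alike within 1.52 times, while the controls spanned 14.9 times, with control 2 highest and control 4 next. Control 2 set much of the size of the difference: without it the log2 fold change was 4.72, and without any other library it was between 3.19 and 3.69. Between the 2 deepest libraries the unnumbered KO library had 10.7 times the level of control 4, and among the other 5 libraries the ratio of means was 12.2.

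Igdcc4, a surface protein related to protogenin that is known from the developing neural tube and liver, moved in the same direction by less. Its normalized counts were 618, 974, 540 and 786 in controls and 1162, 1327 and 1076 in KO libraries. All KO libraries were above all controls, though the gap between control 2 and the unnumbered KO library was narrow. Among genes with an adjusted p-value, 6.07% had all KO libraries above all controls. The means were 730 ± 193 (SD, n = 4) and 1188 ± 127 (SD, n = 3), with a log2 change of 0.70 (SE 0.22) and values of 0.58 to 0.87 when any 1 library was left out. As for Prtg, control 2 was the highest control and control 4 the next. Between the 2 deepest libraries the ratio was 1.37, and among the other 5 it was 1.75.

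Neo1, the widely expressed netrin and RGM receptor, had 11120, 10488, 10459 and 9261 normalized counts in controls. In KO libraries it had 11058, 13491 and 9587. The groups overlapped, with KO 2 the highest of all libraries and control 4 the lowest. The means were 10332 ± 776 (SD, n = 4) and 11379 ± 1972 (SD, n = 3), with a log2 change of 0.14 (SE 0.14). The difference was within the spread between libraries.

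Dcc and Igdcc3 were at the edge of detection. Dcc (ENSMUSG00000060534) lies on chromosome 18, 71253634 to 72351069, minus strand. Dcc had 6, 8, 6 and 20 counts in controls and 2, 8 and 12 in KO libraries, or 9.64 ± 3.39 (SD, n = 4) and 6.37 ± 3.84 (SD, n = 3) normalized counts, with overlapping groups. Igdcc3 had 0, 2, 0 and 8 counts in controls and 0, 4 and 6 in KO libraries. For both genes the highest count was in control 4, the library with a count in the most genes. If counts are independent, a count of 0 allows up to 3 counts, which is between 2.93 and 3.92 normalized counts in the libraries with a 0. This floor is too low if both mates of a pair were counted, which was not tested. The difference in Dcc was within the spread between libraries, and Igdcc3 was too close to the floor for a fold. The transcripts of Igdcc3 were thus near 0 although those of its neighbour Igdcc4 were plentiful.

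**Figure D1:**
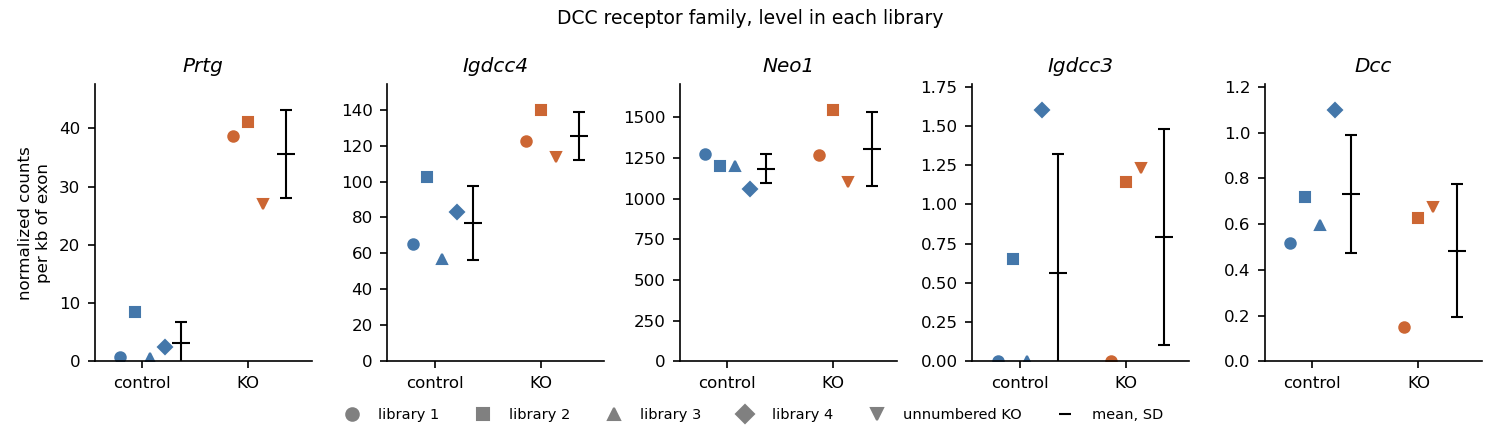
Level of the 5 DCC family genes in normalized counts per kb of exon (vertical axes start at 0 and differ between genes) in 4 control and 3 KO libraries, with 1 symbol per library and the mean with its SD beside each group. Prtg and Igdcc4 lie higher in all KO libraries than in all controls, Neo1 overlaps, and Igdcc3 and Dcc stay below 2.

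In the fit across all genes, 3 of the 5 members received an adjusted p-value, and 2 of these, Prtg and Igdcc4, were under 0.05 in DESeq2, where 4.51% of the 17571 genes tested were called. In edgeR 0 of 3 were under 0.05 after adjustment, 2 had an unadjusted p under 0.05, and 1.05% of all genes tested were called. Igdcc4 stayed under the DESeq2 threshold in 2 of 7 fits that each left out 1 library, and Prtg in 7 of 7. Prtg was not under it without the 2 deepest libraries or with the replicate number as a block in the 4 libraries numbered 1 and 2. Because these genes were proposed from this comparison, nothing is read from these counts. By length-scaled level Neo1 made up 93.6% ± 1.96 (SD, n = 4) of the family sum in controls, and in KO libraries 88.9% ± 0.476 (SD, n = 3), while Igdcc4 made up 6.10% ± 1.65 and 8.60% ± 0.526, and Prtg 0.242% ± 0.281 and 2.42% ± 0.270. The sum over the 5 genes was 1151 to 1342 normalized counts per kb in controls and 1242 to 1731 in KO libraries, with overlap.

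The wider pathway showed how ligands, other receptors and inner partners of the family stood in the same cells. It was described by 66 genes in 6 lists, of which 64 had a count and 59 an adjusted p-value, with 9 higher and 5 lower in KO. This is 23.7% of the genes tested, beside 4.51% over all genes (2.24% higher and 2.27% lower). The lists were chosen with earlier results of these data known, so nothing is read from this share or from those of single lists. The median log2 fold change was 0.07 over the lists and 0.01 over all genes. In edgeR, Rgma and Myo10 alone of 61 tested had an adjusted p under 0.05, beside 1.05% over all genes. The number called in DESeq2 was 14 without control 4 and also without the 2 deepest libraries, 8 without control 3, and 9 without KO 1 or without the unnumbered KO library.

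**Figure D2:**
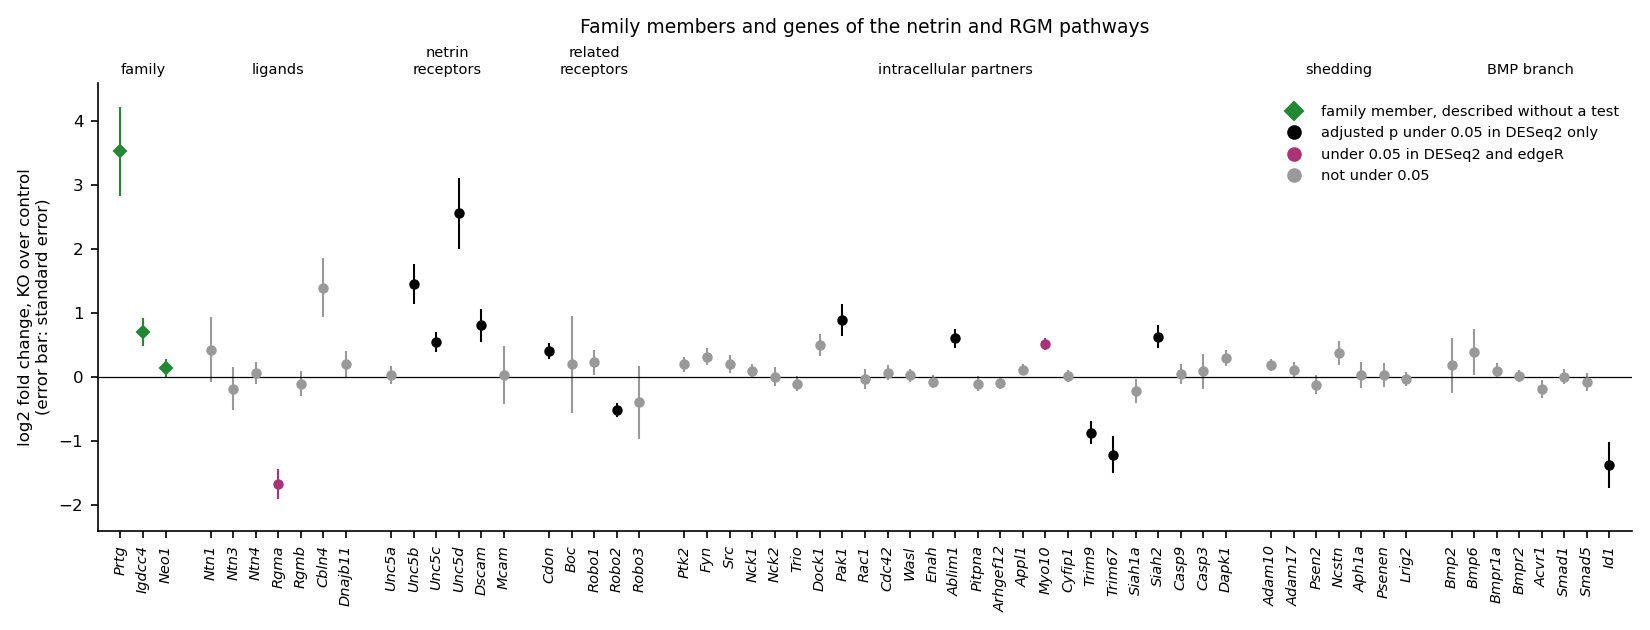
Log2 fold change (KO over control) with its standard error for 3 family members and the pathway genes shown, grouped by role. Black and purple points are genes past the threshold in DESeq2, and the 2 purple ones, Rgma and Myo10, also in edgeR. The receptor group holds 4 higher genes and the ligand group 1 lower gene.

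Among the ligands, 1 of 7 tested changed, and it fell, beside 2.27% lower over all genes. Rgma, a membrane-anchored RGM that binds neogenin and acts as a BMP co-receptor, had 727, 1163, 913 and 726 normalized counts in controls and 256, 353 and 222 in KO libraries. The groups did not overlap, as for 5.94% of all genes tested in this direction. Mean levels were 882 ± 207 (SD, n = 4) and 277 ± 68.0 (SD, n = 3), a log2 change of -1.67 (SE 0.24, adjusted p 1.33e-09, edgeR 0.0157). Its log2 change was between -1.88 and -1.51 when any 1 library was left out, with DESeq2 below the threshold each time. Opposite-strand exons cover 4.7% of the exon length of Rgma.

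Rgmb, the close paralog of Rgma, had 1272 ± 190 and 1188 ± 240 normalized counts in control and KO libraries (log2 fold change -0.10, adjusted p 0.990), with overlap. Per kb of exon Rgma and Rgmb were near each other in controls, at 159 and 166, while Rgmb stayed at 155 in KO libraries. Ntn4, a netrin of basement membranes, was the most abundant netrin at 529 and 552 per kb and had a log2 change of 0.06 (adjusted p 0.998). Ntn1 and Ntn3, which encode the netrins that bind DCC with high affinity, were low at 17.6 and 18.9 per kb in controls and were not past the threshold (adjusted p 0.949 and 0.988). Dnajb11, which encodes a chaperone described as a protogenin ligand, had 590 per kb in controls and 680 in KO libraries (adjusted p 0.905). Cbln4, chosen here after its values were seen, encodes a secreted DCC ligand. It had 141, 84.9, 52.3 and 46.3 normalized counts in controls and 319, 165 and 156 in KO libraries, a log2 change of 1.40 that missed the threshold (adjusted p 0.0565, and 0.0162 with a block by column number). Ntn5 and the RGM gene Hfe2 had 0 counts in every library.

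The other netrin receptors were described next, and as for the other lists nothing is read from their share of calls. In DESeq2 4 of 6 tested rose, beside 2.24% over all genes, and 0 fell, with a median log2 fold change of 0.68. In edgeR 0 of 7 passed after adjustment, beside 1.05% over all genes, and 4 had an unadjusted p under 0.05. The UNC5 proteins are netrin receptors that mediate repulsion, alone or together with DCC.

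Unc5d, which also binds the FLRT adhesion proteins, had 47.7, 162, 18.3 and 44.8 normalized counts in controls and 424, 390 and 385 in KO libraries. The KO libraries lay close together, and the lowest was 2.38 times the highest control, which was again control 2. The log2 fold change was 2.56 (SE 0.55, adjusted p 0.000204, edgeR 0.0973). It missed the threshold without control 4 (0.0677) and without the 2 deepest libraries (0.211). Unc5b, a receptor best known from blood vessels, had 205, 251, 157 and 156 normalized counts in controls and 582, 687 and 324 in KO libraries. The groups did not overlap, and the unnumbered KO library was the lowest of the KO group. Its log2 change was 1.46 (SE 0.31, adjusted p 0.000136, edgeR 0.0547), with DESeq2 below the threshold whichever library was left out.

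Unc5c rose by less from a higher level, with 2270, 2378, 1901 and 2871 normalized counts in controls and 3188, 3300 and 3852 in KO libraries. Its log2 change was 0.55 (SE 0.16, adjusted p 0.0149, edgeR 0.133). It passed in 2 of 7 fits that each left out 1 library, and not without control 1 (0.0812), control 3 (0.0652), KO 1 (0.0615), KO 2 (0.0548) or the unnumbered KO library (0.152). Unc5a, the most abundant of the 4 UNC5 genes per kb of exon (675 in control and 692 in KO libraries), had a log2 change of 0.04 (SE 0.14, adjusted p 0.998). In KO libraries the order per kb was Unc5a, Unc5c (180), Unc5b (84.9) and Unc5d (43.4), the same as in controls (675, 123, 30.7 and 7.38).

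Dscam, an adhesion molecule that also binds netrin, had 765 ± 208 (SD, n = 4) and 1343 ± 372 (SD, n = 3) normalized counts, and KO 2 at 954 lay just under control 1 at 963. Its log2 change of 0.81 (adjusted p 0.0378 in DESeq2, 0.234 in edgeR) did not pass without KO 1 (0.497), without control 3 (0.147), without the unnumbered KO library (0.146) or without the 2 deepest libraries (0.548), nor with a block by column number (0.0587). Mcam, a netrin-binding adhesion molecule of vessels, had a log2 change of 0.03 (adjusted p 0.999).

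Of the related immunoglobulin and fibronectin receptors, 1 of 5 tested rose and 1 fell, beside 2.24% and 2.27% over all genes. Robo2, a Slit receptor, was the most abundant of these per kb, with 16122, 16702, 18493 and 18912 normalized counts in controls and 11763, 11385 and 13610 in KO libraries. The KO libraries were all below the controls, at a log2 change of -0.52 (SE 0.11, adjusted p 0.000174, edgeR 0.0594). Scaled to library totals, which moved the median of all genes by 0.10, Robo2 was at -0.41 and missed the threshold (adjusted p 0.0618). Cdon, a Hedgehog co-receptor that also binds neogenin, rose from 1452 ± 137 to 1933 ± 121 normalized counts without overlap, a log2 change of 0.41 (adjusted p 0.0285, edgeR 0.144). Cdon passed in 1 of 7 fits that each left out 1 library, the one without control 2, with 0.0552 to 0.365 in the others and the highest without KO 1. With a block by column number its adjusted p was 0.0534. Robo1 had a log2 change of 0.23 (adjusted p 0.834).

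Among 25 partners inside the cell, 4 rose and 2 fell (2.24% and 2.27% over all genes), and 19 were not past the threshold. Both genes that fell encode ubiquitin ligases of the TRIM family that bind DCC. Trim9 had 2113, 2579, 2168 and 2429 normalized counts in controls and 1159, 1001 and 1662 in KO libraries, without overlap, at a log2 change of -0.87 (SE 0.18, adjusted p 0.000189, edgeR 0.0536). Its paralog Trim67 had 518, 369, 701 and 822 in controls and 270, 311 and 204 in KO libraries, also without overlap, at -1.21 (SE 0.29, adjusted p 0.00185, edgeR 0.104). Both passed in DESeq2 whichever library was left out.

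Myo10, an unconventional myosin that carries DCC into filopodia, had 7814, 7722, 7151 and 7707 normalized counts in controls and 10349, 12136 and 10178 in KO libraries. The controls lay close together and all KO libraries were above them. The log2 fold change was 0.52 (SE 0.10, adjusted p 3.34e-05, edgeR 0.0439), and it passed in DESeq2 whichever library was left out. Ablim1, an actin-binding LIM protein, rose from 1927 ± 316 to 2947 ± 240 normalized counts (log2 fold change 0.61, adjusted p 0.00223, edgeR 0.0697), and missed the threshold without KO 2 (0.0583). Pak1, a kinase downstream of Rac1 and Cdc42, rose from 286 ± 78.8 to 532 ± 70.2 (0.90, adjusted p 0.0130, edgeR 0.130), but not without KO 1 (0.222), KO 2 (0.130), control 1 (0.0775) or control 3 (0.0655). Siah2, a ubiquitin ligase of the family that targets DCC for degradation, rose from 1663 ± 299 to 2565 ± 419 (0.63, adjusted p 0.0156, edgeR 0.144), but not without control 1 (0.0654), control 3 (0.0509), KO 1 (0.0621) or the unnumbered KO library (0.187).

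The 3 partners with the highest level per kb, averaged over the 7 libraries, showed no change past the threshold. The GTPase gene Cdc42 had a log2 change of 0.07 (adjusted p 0.981), Rac1 had -0.03 (0.998), and Arhgef12, which encodes a guanine nucleotide exchange factor linked to neogenin, had -0.09 (0.913). Opposite-strand exons cover 51.4% of the exon length of Rac1 and 8.9% of that of Arhgef12. In control 4 Rac1 had 3353 normalized counts, against 4539 to 4907 in the other controls. Of the 8 genes for shedding and cleavage of the receptors, 0 were called in DESeq2 or edgeR and 1 had an unadjusted p under 0.05 in each, with log2 fold changes from -0.12 to 0.38. Among them, the gamma-secretase subunit genes Ncstn and Psenen were at 0.38 (adjusted p 0.365, and 0.000301 with a block by column number) and 0.03 (0.999).

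In the BMP branch, 1 of 8 tested genes changed, and it fell, beside 2.27% lower over all genes. Id1, a target gene of BMP signalling, had 320, 243, 533 and 317 normalized counts in controls and 160, 169 and 78.5 in KO libraries, without overlap. Its log2 change was -1.38 (SE 0.36, adjusted p 0.00496, edgeR 0.143), and it missed the threshold without control 3 (0.0652) or without the unnumbered KO library (0.0506), and with a block by column number (0.0505). The receptor gene Bmpr1a had a log2 change of 0.10 (adjusted p 0.951), and the signal transducers Smad1 and Smad5 had 0.01 (0.999) and -0.08 (0.984).

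**Figure D3:**
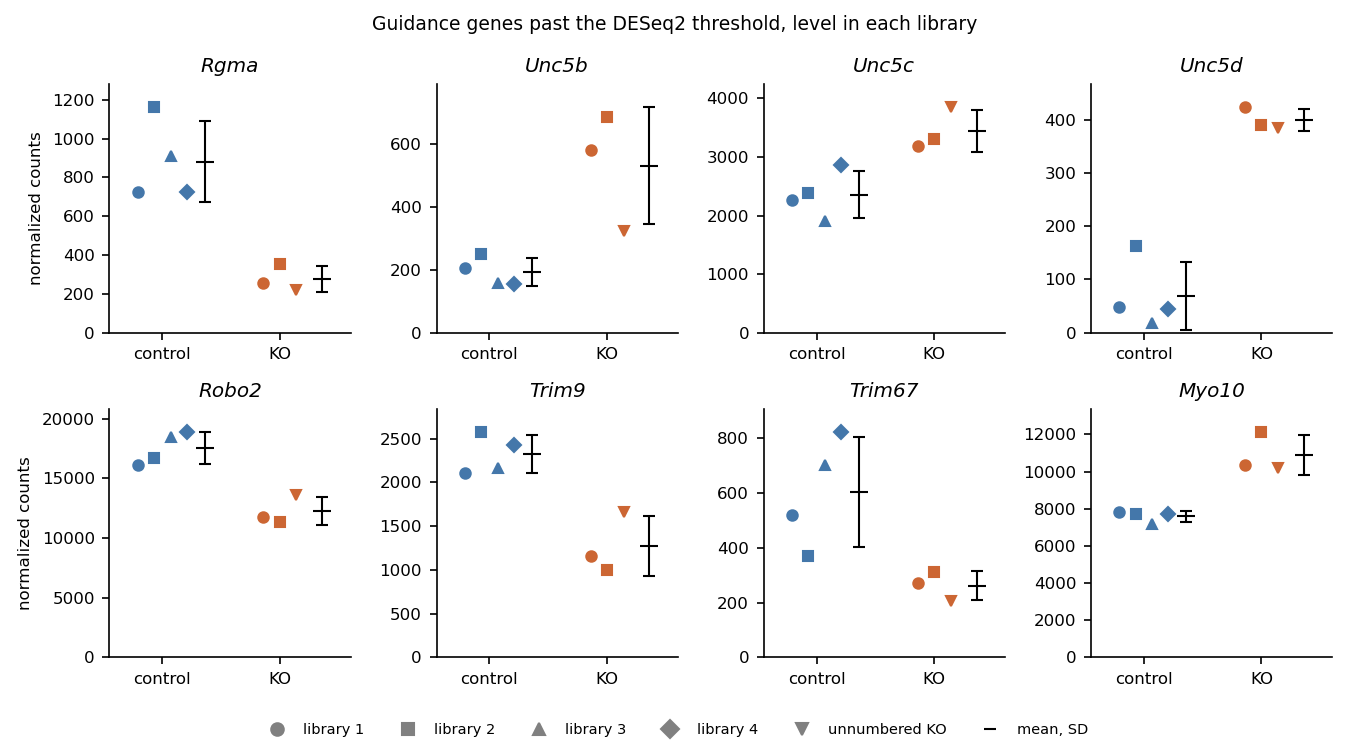
Normalized counts of 8 pathway genes past the DESeq2 threshold in each of 4 control and 3 KO libraries, with the mean and SD of each group (axes start at 0 and differ between genes). Rgma, Robo2, Trim9 and Trim67 are lower and Unc5b, Unc5c, Unc5d and Myo10 higher in KO libraries, without overlap between the groups.

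Genes next to the family members were examined by taking the 3 nearest protein-coding genes on each side of each member, 24 genes in all. Of 22 tested, 1 was past the threshold (4.51% over all genes), and it was Pygo1, which begins 8.35 kb beyond the end of Prtg on the same strand and encodes a coactivator of Wnt signalling. Pygo1 (ENSMUSG00000034910, chromosome 9, 72925645 to 72952181) had 387, 533, 404 and 241 normalized counts in controls and 685, 903 and 653 in KO libraries. The groups did not overlap, at a log2 change of 0.94 (SE 0.27, adjusted p 0.0149, edgeR 0.148). It missed the threshold without control 1 (0.0638), control 3 (0.0549), KO 1 (0.0850) or KO 2 (0.214). Whether its counts include reads that run on from Prtg was not tested. On the other side of Prtg, Nedd4, a ubiquitin ligase gene 57.0 kb away, had a log2 change of -0.08 (adjusted p 0.951). The 21 neighbours that were not called but were tested had values from -0.18 to 0.56, among them Dpp8 (-0.06) and Parp16 (-0.18), which flank the pair Igdcc4 and Igdcc3, and Hcn4 (0.13), next to Neo1. Rec114, also beside Neo1, was too low for an adjusted p-value, at 6.87 and 1.68 normalized counts in control and KO libraries.

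**Figure D4:**
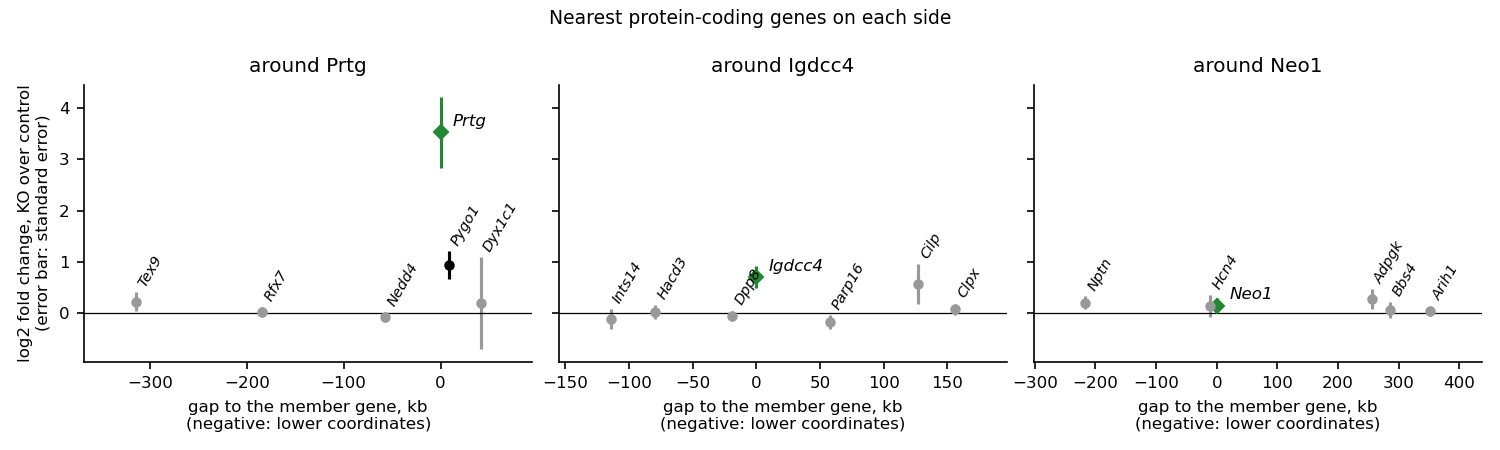
Log2 fold change (KO over control, with standard error) of the nearest protein-coding genes against their distance in kb from Prtg, Igdcc4 and Neo1, which are drawn as diamonds at 0. Beside Prtg at 3.53, Pygo1 at 0.94 is the only neighbour past the DESeq2 threshold (black), and the other neighbours with an adjusted p-value lie between -0.18 and 0.56.

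The profile of Prtg over the 7 libraries was shared most closely by 5 genes, by the root mean square difference of centred log2(normalized count + 1) profiles among 17289 genes. They were Irs4, an insulin receptor substrate gene (0.61), Cdh26, a cadherin gene (0.63), Myo5c, a class V myosin gene (0.68), the pseudogene Gm8893 (0.70) and Cpb2, a carboxypeptidase gene (0.70). Irs4 had 6.81, 203, 13.1 and 15.9 normalized counts in controls and 530, 547 and 465 in KO libraries. Myo5c had 43.1, 491, 32.7 and 35.4 in controls and 1435, 1914 and 1596 in KO libraries. In each of the 6 genes control 2 was the highest control and lay below every KO library. These genes were picked for a profile with high KO libraries, so their difference between the groups is no separate result.

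**Figure D5:**
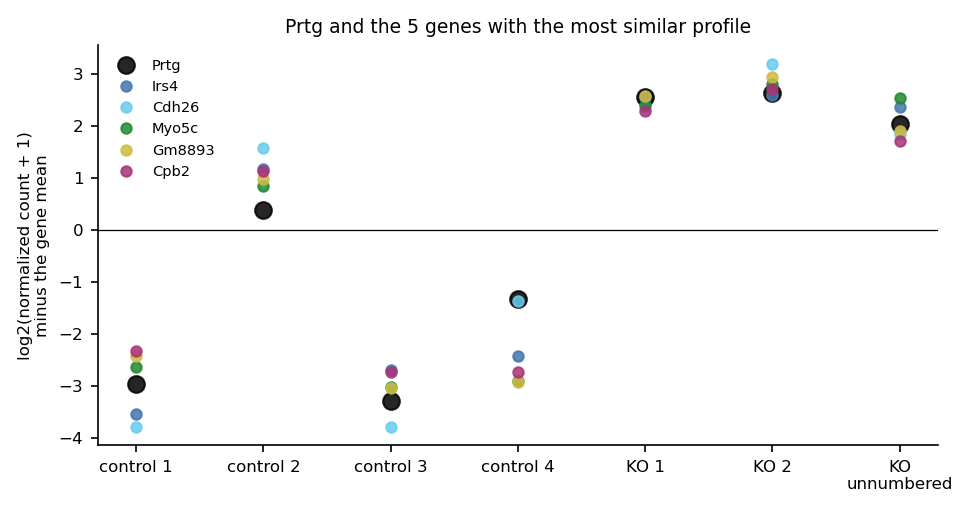
Profile of Prtg (large black points) and the 5 genes most like it over 4 control and 3 KO libraries, as log2(normalized count + 1) minus the mean of each gene. In all 6 genes control 2 stands above the other controls and below the KO libraries.

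Some markers of other islet cells rose in KO libraries, while others of the same lists fell or were not past the threshold. In the epsilon (ghrelin) cell list, Mboat4, which encodes the enzyme that acylates ghrelin, had 6.81, 35.4, 0 and 8.67 normalized counts in controls and 141, 213 and 147 in KO libraries. Ghrl had 479, 1307, 26.1 and 171 in controls and 4673, 4637 and 2323 in KO libraries. For both genes, as for Prtg, control 2 was the highest control and control 3 the lowest. Of the 4 genes of this list, Mboat4 (adjusted p 0.000184) and Acsl1 (0.0357) rose, Etv1 (0.000604) fell and Ghrl missed the threshold (0.130). Over all genes 2.24% rose and 2.27% fell. The edgeR test called 0 of 4 (1.05% over all genes), all 4 with an unadjusted p under 0.05. Acsl1 passed in 1 of 7 fits that each left out 1 library, the one without control 2, and Mboat4 missed the threshold without control 4 (0.127) and without the 2 deepest libraries (0.356). Ghrl passed with a block by column number (adjusted p 5.91e-06) and with the block on the 4 libraries numbered 1 and 2 (0.00709). It also passed without control 2 (0.00256) and without control 3 (0.0485). Opposite-strand exons cover 15.9% of the exon length of Ghrl and 7.4% of that of Mboat4. The summed level of the list was 16332 to 19008 in controls and 15541 to 17448 in KO libraries, most of it from Etv1. The gamma cell list (2 of 4 higher by DESeq2, where 2.24% of all genes were higher, and 1 by edgeR) summed to 309330 to 580204 in controls and 889660 to 1136309 in KO libraries, and the delta cell list (2 of 5 higher, 0 by edgeR) to 197155 to 400129 and 356961 to 633738. Most of the gamma sum came from Ppy and Pyy, while Aqp4 (log2 fold change 0.05) and Sertm1 (-0.13) were not past the threshold. Most of the delta sum came from Sst, which missed the threshold (adjusted p 0.513), as did Hhex (0.297) and Ghsr (0.264). Sst passed without control 2 (0.0212) and without KO 2 (0.0338), and Hhex without control 2 (0.0197). The delta genes Rbp4 and Ffar4 were called, and passed in 3 and 1 of 7 fits that each left out 1 library.

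In the beta cell list 0 of 7 were called by DESeq2 or edgeR (4.51% and 1.05% over all genes), and 3 had an unadjusted p under 0.05 in each. The list summed to 299620 to 615406 in controls and 437729 to 841951 in KO libraries. The endocrine progenitor list had 0 genes higher and 1 of 4 tested, Fev, lower, beside 2.24% and 2.27% over all genes (edgeR called 0). Its sums were 3837 to 7102 in controls and 5020 to 5964 in KO libraries. Control 4 had the lowest sum, and there Sox4 had 1414 normalized counts against 3627 to 4425 in the other controls. Opposite-strand exons cover 54.6% of the exon length of Sox4. It missed the threshold (adjusted p 0.996) but was called lower in KO without control 4 (log2 fold change -0.45, adjusted p 0.00722). Fev passed in 4 of 7 fits that each left out 1 library. Sox9 of this list, named after its values were seen, had 250, 586, 94.1 and 139 normalized counts in controls and 862, 1039 and 682 in KO libraries, without overlap. It missed the threshold (adjusted p 0.169) but passed without control 2 (2.37e-10), without control 3 (0.0357) and with a block by column number (6.23e-06). Sox9 and the duct gene Cftr, too, had control 2 as the highest control and control 3 as the lowest. The same held for the delta genes Hhex and Ghsr and for Neurog3 of the progenitor list. Neurog3 missed the threshold (adjusted p 0.608) but passed without control 2 (0.00290). In Sst, Rbp4 and Ppy control 2 was also the highest control, but control 4 was the lowest. Of the duct list 2 of 6 were higher by DESeq2, beside 2.24% over all genes, and 0 by edgeR. Of the 2 called genes, Krt8 passed in 0 and Spp1 in 2 of 7 fits that each left out 1 library. The list summed to 22427 to 26916 in controls and 27477 to 27762 in KO libraries. Sums overlapped for the acinar (267 to 10195 in controls, 1565 to 5518 in KO libraries), endothelial (380 to 563, 361 to 956) and leukocyte lists (974 to 1524, 859 to 1032). They also overlapped for the mesenchymal (1402 to 3922, 2313 to 4187) and Schwann cell lists (698 to 1228, 890 to 904). Of the 24 genes tested in these 5 lists, 0 rose and 1, the leukocyte gene C1qa, fell, beside 2.24% and 2.27% over all genes. C1qa (adjusted p 0.0113, not called by edgeR) passed in 4 of 7 fits that each left out 1 library. No listed marker was at 0 in all libraries. The part of any of these cells in the values of Prtg, Igdcc4 and the UNC5 genes was not tested.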

How the data were processed

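RNA of sorted alpha cells was sequenced after preparation with a strand-specific low-input total RNA kit, per the labels' protocols. The labels call the RNA both ribosome-depleted and polyA. The authors deposited whole-number counts per gene and library. FastQC, STAR, featureCounts, DESeq2 and the build mm10 are named in the submitters' processing notes, without versions. The annotation and strand setting are not given in the sources used here. All 7 columns were used. Even numbers made up 84.4% to 88.9% of the counts between 1 and 10, so both mates of a pair may have been counted. In that case the floors (3 counts) are too low. Intervals or floors cover counting error only.

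All 55536 identifiers matched GENCODE M21 (GRCm38), which gave positions and exon lengths. KO was compared with control in DESeq2 1.42.0 (R 4.3.3), the test the series' design text states, at an adjusted p of 0.05. The quasi-likelihood test of edgeR 4.0.16 was the first alternative. The fits were tested on simulated data drawn with edgeR's dispersions, which may favour edgeR. DESeq2 found more of the changed genes but exceeded its nominal share of false calls, and edgeR came close to its own. Promoter windows came from RefSeq (GRCm38.p6).

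The members, gene lists and tests were chosen with earlier results of these data known. Genes named were the members, pathway genes past the threshold, up to 3 of the most abundant others per list, the neighbours of Prtg and the 5 genes with the profile closest to Prtg (mean normalized count of at least 20, pseudocount 1). Alternatives were other filters, scalings and tools, leaving out each library, the 2 deepest libraries and replicate blocks. Of the genes this rule names, 1 is not reported here by name or drawn, and it remains in the counts.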

Additional observations from a re-analysis of the deposited data

Results flagged for a closer look

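Of 43 genes checked, in 8 the 4 controls held 1 value far from the rest (Dixon's ratio, gap over range, above its 95% critical value). Chance gives about 1 in 20, or 2.15 genes. Control 2 stood high in Irs4 (ratio 0.954), Cdh26 (0.892), Myo5c (0.977), Gm8893 (0.965) and Cpb2 (0.975), which are the 5 genes whose profile is most like that of Prtg. Because these 5 were picked together by their profile, they are not separate flags. Control 3 stood low in Myo10 (0.839) and high in Stard6, a neighbour of Dcc (0.880). Control 4 stood low in Bbs4, a neighbour of Neo1 (0.871).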

How the results depend on the processing

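The log2 fold change of Prtg stayed between 3.19 and 4.72 over 17 alternatives and that of Igdcc4 between 0.58 and 0.87. Neo1 ranged from 0 to 0.25 and Dcc, with 15 alternatives, from -0.96 to -0.18. Igdcc3 ranged from -0.01 to 1.86, the highest without control 4, and the edgeR filter left no value for Dcc or Igdcc3. Over all genes 792 were called, against 203 in edgeR, 329 in edgeR without its filter and 1379 with a term for the 2 deepest libraries, which was chosen after seeing the data. Leaving out 1 library gave 430 (without KO 1) to 907. Scaling to library totals called 684 higher and 297 lower, against 394 and 398. Pathway genes called were 14, against 2 in edgeR and 6 in edgeR without its filter, and 8 to 15 when 1 library was left out. Of neighbours, 1 was called, against 0 in both edgeR fits, 2 with library totals and 0 to 1 when 1 library was left out. No called pathway gene or neighbour changed sign under any alternative. With the replicate number as a block, on the 4 libraries numbered 1 and 2, 9 pathway genes were called, and Id1, Siah2, Pak1, Trim67, Cdon and Dscam missed the threshold. Same-numbered libraries deviated together only weakly (r = 0.118 and 0.191 over 19652 genes), and the labels do not say that a number marks a shared origin. A block by column number, added after seeing the data, used 6 libraries (control 4 and the unnumbered KO library correlated at 0.34) and called 13 pathway genes, with Id1, Cdon and Dscam lost and Cbln4 and Ncstn gained. Each of its 3 pairs correlated over 0.1, but control 3 and KO 2, which share no number, correlated at 0.287. That is above the pairs numbered 1 and 2. The column number of the unnumbered library is in no KO title. The cause of these differences was not tested. Depth limits Dcc and Igdcc3, whose counts were between 0 and 20.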

Other observations

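Some listed genes were too low for an adjusted p-value in DESeq2. Dscaml1, a relative of Dscam, had 0, 0, 7.84 and 14.5 normalized counts in controls and 31.3, 24.8 and 23.0 in KO libraries, so all KO libraries were above all controls. It was named after its values were seen, and edgeR gave it an adjusted p of 0.587.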
